A study of Mus musculus with 6 samples.

Results

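The 26 genes described here carry inhibitory signalling by GABA and glycine: enzymes that make and break down GABA, transporters that load and clear both transmitters, subunits of their receptors, and a pair of proteins that hold receptors at the synapse. They were taken by gene symbol from a list of names, by a rule that uses no measured value, and each name matched 1 of the 51826 genes in the deposited table. All 26 passed the filter on low counts that left 18956 genes for testing.

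GABA is made from glutamate by the decarboxylases GAD67 and GAD65, loaded into vesicles by a transporter it shares with glycine, and cleared by neurons and astrocytes. Fast inhibition runs through chloride channels, the pentameric GABA-A receptors and the glycine receptors, and slow inhibition through the GABA-B receptor, an obligate pair of subunits coupled to G proteins. In the paraventricular nucleus, a hypothalamic nucleus with vasopressin, oxytocin and presympathetic neurons, GABA input restrains neurons that drive sympathetic outflow.

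Sequenced mRNA came from mouse tissue labelled as paraventricular nucleus, with 3 wild-type libraries (WT) and 3 libraries (KO) of mice labelled as a glutamatergic neuronal ADAM17 knockout. ADAM17 is a protease that sheds proteins from the cell surface. Replicates 1 and 2 of each genotype are male and replicate F1 is female, and values below follow that order. The labels give no age, Cre driver, treatment or pooling of animals, and do not say that libraries come from separate animals, so p-values measure the spread between these libraries, which may be technical. By its label the deletion lies in glutamatergic neurons, whereas the RNA is from whole tissue. In such bulk samples fewer cells of a type and less RNA per cell cannot be told apart.

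Total counts lay between 35114426 and 54421330 per library. Adam17 itself stood at 17.1, 17.2 and 15.6 CPM in WT, against 15.4, 14.6 and 13.9 CPM in KO (CPM being counts scaled to library size), a difference that missed the threshold (log2 fold change −0.19, SE 0.11, adjusted p = 0.747, edgeR). Mitochondrially encoded genes took 20.63% of counts in KO replicate 1 and 7.22% to 9.20% in the other libraries. Sim1 and Otp, factor genes of the paraventricular nucleus, were detected but low on the TPM scale (abundance scaled for gene length). Sim1 stood between 0.180 and 1.08 TPM and Otp between 1.14 and 8.80 TPM, while the hormone gene Avp stood between 13.4 and 158 TPM. The 6 paraventricular markers summed to between 62.05 and 339 TPM per library, and 7 striatal markers to between 421.8 and 1279.7 TPM. Ppp1r1b, the highest of the striatal markers, stood between 220.1 and 600.2 TPM. Slc17a7, the glutamate transporter of cortical neurons, stood between 341 and 745 TPM.

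Per unit of length Gabbr1 had the highest level of the 26, at 578 ± 45.8 TPM in WT and 496 ± 131 TPM in KO (SD, n = 3 each). KO replicate 1 was its lowest library, at 348 TPM. In CPM its KO mean lay above its WT mean (872 and 830). Gad1 followed at 339 TPM over all 6 libraries. Gabbr2, Abat, Slc6a11, Gad2, Slc32a1, Glrb and Nlgn2 came next, from 198 down to 127 TPM, and neighbours such as Gad2 (143 TPM) and Slc32a1 (142 TPM) lay within each other's spread. The GABA-A subunit genes ran from Gabra3 at 85.8 TPM through Gabrb2, Gabrd, Gabra5, Gabra2 and Gabra4 (48.3 TPM) to Gabrb1 at 27.0, Gabrg1 at 13.1 and Gabrg3 at 10.9 TPM. Gabre (2.50 TPM) and Slc6a5 (1.21 TPM) were lowest.

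**Figure D1:**
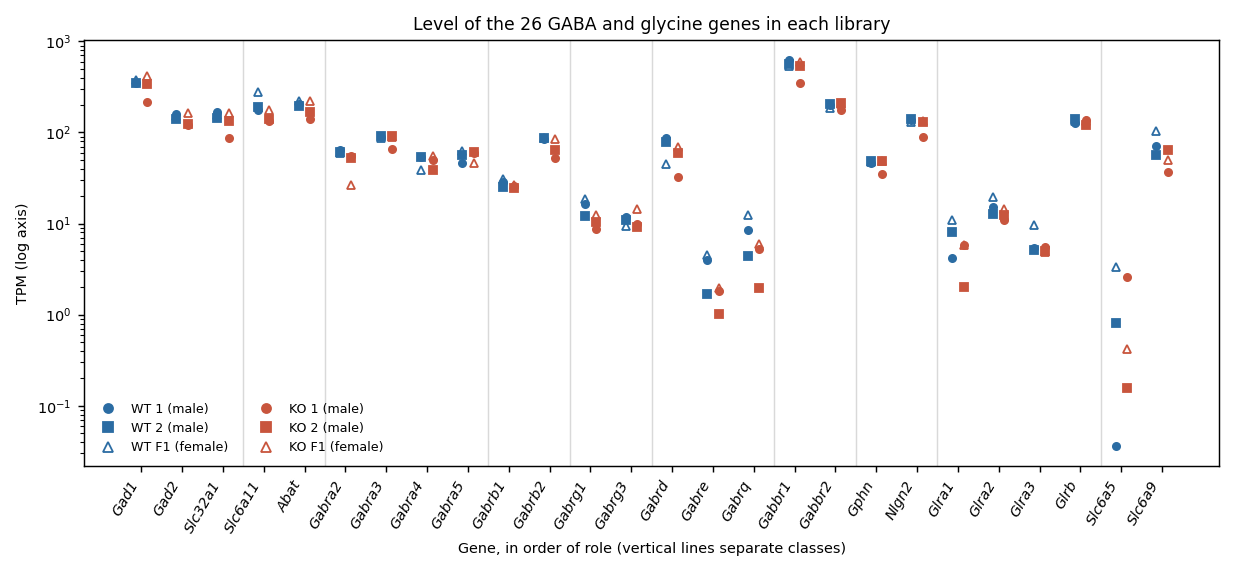
Level of each of the 26 genes in every library, in TPM on a log axis, with genotype shown by colour and sex by symbol. Gabre, Gabrq, Glra1 and Slc6a5 spread most widely. Others, such as Slc6a9 (36.5 to 104 TPM) and Gabrd (32.3 to 85.9 TPM), also vary between libraries.

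Comparing KO with WT asks whether the deletion changes expression in this tissue, here for the genes of inhibition. None of the 26 changed past an adjusted p of 0.05: the edgeR quasi-likelihood test called 0 of 26, against 0.00528% of all genes tested, and DESeq2 and voom also called 0. At an unadjusted p under 0.05 there was 1, Gabbr2, against 6.38% of all genes. Log2 fold changes were above 0 for 14 genes and below 0 for 12, with a median of 0.054 beside −0.0036 over all genes. Their median size without sign was 0.17 beside 0.16, and 3 of 26 exceeded 0.5 in size beside 2086 of 18956. All KO libraries lay above all WT libraries for 2 genes, Gabbr2 and Gphn, where 6.61% of all genes did so, and below them for 0, where 7.32% did so. These shares are near the background.

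**Figure D2:**
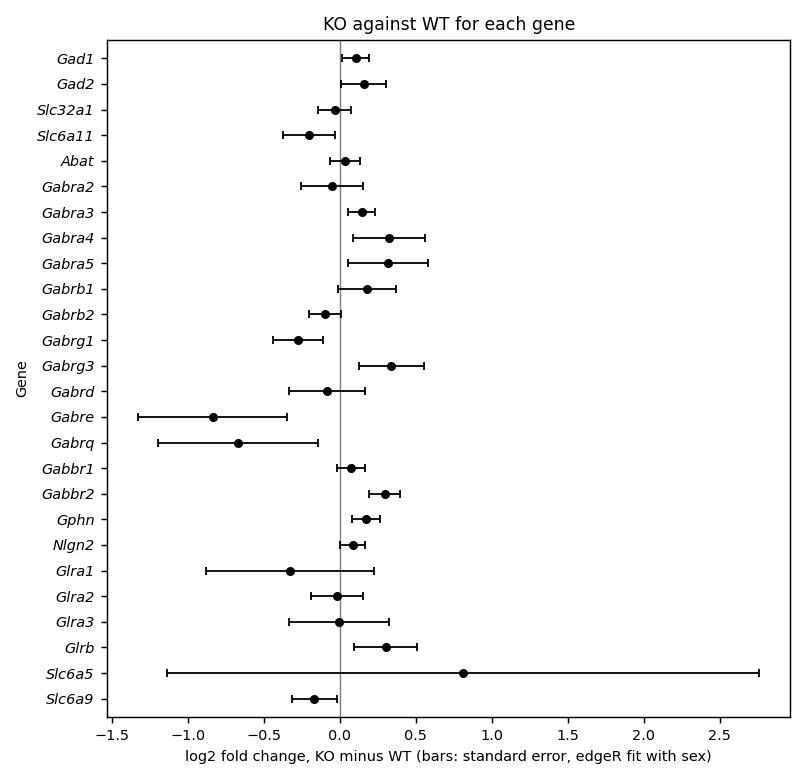
Log2 fold change, KO minus WT, of each of the 26 genes (points) with its standard error (bars) from the edgeR fit with sex as a term. Gabre and Gabrq lie lowest at −0.84 and −0.67, and Slc6a5 has the widest bar, with a standard error of 1.95.

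For GABA synthesis and vesicular loading, 0 of 3 genes passed the test. Gad1 encodes GAD67, which makes most basal GABA, and stood at 426, 388 and 411 CPM in WT, against 435, 424 and 458 CPM in KO. The genotypes overlapped, with KO replicate 2 below WT replicate 1 (means 408 ± 19.3 and 439 ± 17.4 CPM, SD, n = 3; log2 fold change 0.10, SE 0.088, adjusted p = 0.799, edgeR). Gad2, which encodes the synaptic form GAD65, stood at 378, 337 and 357 CPM in WT, against 467, 326 and 401 CPM in KO, so that KO libraries held both extremes (means 357 ± 20.2 and 398 ± 70.2 CPM; log2 fold change 0.16, SE 0.15, adjusted p = 0.815). Gad2 gave log2 fold changes from 0.00058 (without KO replicate 1) to 0.29 (without KO replicate 2) when 1 library was left out. Slc32a1, the vesicular transporter, stood at 202, 172 and 184 CPM in WT, against 167, 177 and 203 CPM in KO (means 186 ± 14.9 and 182 ± 18.6 CPM; log2 fold change −0.034, SE 0.11, adjusted p = 0.945). Again KO libraries were both highest and lowest. The TPM ratio of Gad1 to Gad2 was 2.20, 2.51 and 2.47 in WT and 1.78, 2.72 and 2.53 in KO, lowest in KO replicate 1.

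**Figure D3:**
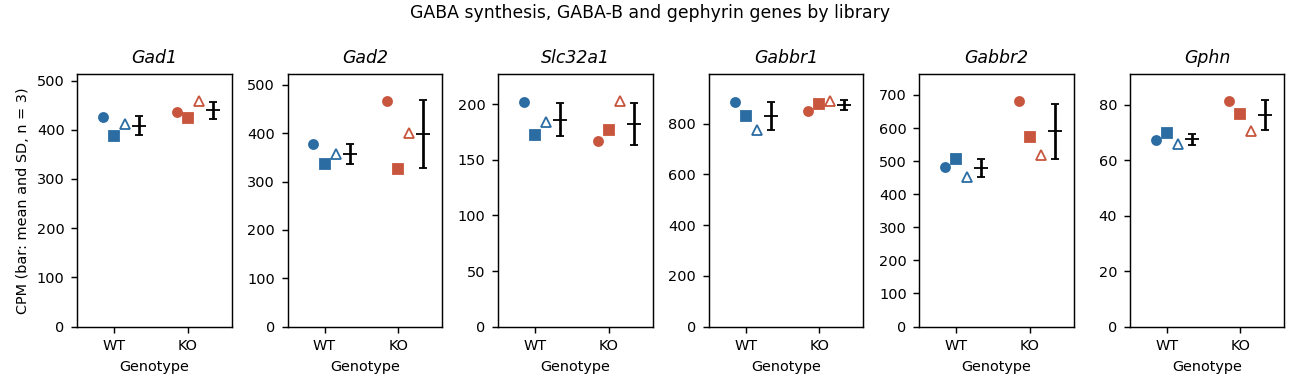
CPM of Gad1, Gad2, Slc32a1, Gabbr1, Gabbr2 and Gphn in each library, with the mean and SD of the 3 libraries of a genotype as black bars, on axes starting at 0. Genotypes overlap for 4 of the genes, and every KO library lies above every WT library for Gabbr2 and Gphn.

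For uptake and breakdown of GABA, 0 of 2 genes passed. Slc6a11, the astrocyte transporter GAT-3, stood at 309, 338 and 487 CPM in WT, against 373, 272 and 321 CPM in KO, with WT replicate F1 the highest (means 378 ± 95.6 and 322 ± 50.7 CPM; log2 fold change −0.20, SE 0.17, adjusted p = 0.8, edgeR). In WT replicate F1 the astrocyte genes Gfap (248 CPM) and Aqp4 (131 CPM) were also above the other WT libraries, at most 169 and 98.4 CPM. Aldoc, Slc1a3 and Gjb6 were likewise highest of WT there, whereas Aldh1l1 and Slc1a2 were lowest. The sum of these 7 astrocyte markers was 3583, 3564 and 3535 CPM in WT and 4449.9, 3942 and 3445 CPM in KO. Slc1a2 was its largest part, at 2008, 1971 and 1703 CPM in WT. The part of the astrocyte markers in the Slc6a11 values was not tested. Without WT replicate F1 the log2 fold change of Slc6a11 was −0.0052, and without KO replicate 1 it was −0.40 (adjusted p = 0.55). Abat, the GABA transaminase, stood at 406, 384 and 433 CPM in WT, against 434, 366 and 453 CPM in KO, KO libraries being both highest and lowest (means 408 ± 24.4 and 418 ± 45.4 CPM; log2 fold change 0.035, SE 0.10, adjusted p = 0.937).

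GABA-A alpha subunits set a receptor's benzodiazepine response and its place in or outside the synapse, and 0 of the 4 genes passed. Gabra3 had the highest TPM of the 4 and stood at 134, 139 and 131 CPM in WT, against 159, 152 and 135 CPM in KO. KO replicate F1 lay inside the WT range and both male KO libraries above it (means 134 ± 3.91 and 149 ± 12.2 CPM; log2 fold change 0.15, SE 0.089, adjusted p = 0.754, edgeR). Gabra5, a subunit of extrasynaptic receptors best known from hippocampus, stood at 46.7, 60.5 and 63.6 CPM in WT, against 101, 69.8 and 48.1 CPM in KO (means 56.9 ± 8.97 and 72.9 ± 26.4 CPM; log2 fold change 0.32, SE 0.26, adjusted p = 0.799). Gabra5 gave log2 fold changes from 0.056 (without KO replicate 1) to 0.67 (without KO replicate F1 or without WT replicate F1) when 1 library was left out. Male KO libraries lay above male WT libraries, and the female KO library below the female WT library. Gabra4, a partner of the delta subunit, ranged over 64.1 to 88.9 CPM in WT and 69.8 to 134 CPM in KO (means 80.0 ± 13.8 and 99.2 ± 32.3 CPM; log2 fold change 0.32, SE 0.24, adjusted p = 0.78). Gabra4 gave log2 fold changes from 0.057 (without KO replicate 1) to 0.58 (without KO replicate 2) when 1 library was left out. Gabra2, a synaptic subunit, ranged over 88.9 to 97.7 CPM in WT and 60.8 to 130.1 CPM in KO (means 93.2 ± 4.39 and 93.1 ± 34.9 CPM; log2 fold change −0.051, SE 0.21, adjusted p = 0.956).

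Within the summed TPM of these 4 alpha genes Gabra3 held the largest share in each library, from 28.6% to 40.9%. Its share was 35.1 ± 0.335% in WT and 35.7 ± 6.37% in KO (SD, n = 3 each). Gabra2 held 25.1, 23.3 and 24.0% in WT and 23.8, 21.5 and 12.2% in KO, lowest in KO replicate F1. In that library the ratio of deposited TPM to CPM for Gabra2 was 0.680, relative to the typical ratio of the 26 genes and to its own median, against 0.952 to 1.04 in the others, whose part in the low share was not tested.

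**Figure D4:**
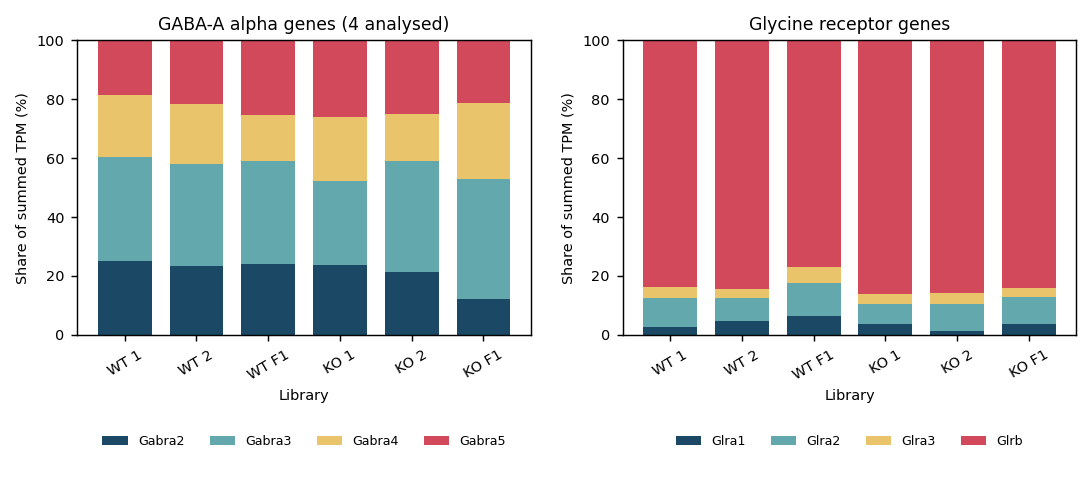
Shares of the summed TPM of the 4 alpha genes (left) and of the 4 glycine receptor genes (right) as stacked bars adding to 100% in each library. Gabra3 is the largest alpha share throughout, Gabra2 shrinks to 12.2% in KO replicate F1, and Glrb fills 76.8% to 86.0% of the glycine receptor bars.

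Beta subunits form part of the GABA binding site and gamma subunits place receptors at synapses, and 0 of the 4 genes of both kinds passed. Gabrb2 stood at 141, 147 and 144 CPM in WT, against 139, 119 and 147 CPM in KO, lowest in KO replicate 2 (means 144 ± 2.66 and 135 ± 14.5 CPM; log2 fold change −0.099, SE 0.10, adjusted p = 0.826, edgeR). Gabrb1 ranged over 143 to 175 CPM in WT and 150.5 to 232 CPM in KO, the top value being KO replicate 1 (means 158 ± 16.0 and 179 ± 45.9 CPM; log2 fold change 0.18, SE 0.19, adjusted p = 0.829). Gabrb1 gave log2 fold changes from −0.058 (without KO replicate 1) to 0.37 (without KO replicate F1 or without WT replicate F1) when 1 library was left out. Gabrg1 stood at 29.95, 24.4 and 32.6 CPM in WT, against 27.5, 19.4 and 24.7 CPM in KO, with overlap (means 29.0 ± 4.20 and 23.9 ± 4.11 CPM; log2 fold change −0.28, SE 0.17, adjusted p = 0.747). Gabrg3 ranged over 32.2 to 42.4 CPM in WT and 34.1 to 59.3 CPM in KO (means 37.6 ± 5.10 and 47.4 ± 12.7 CPM; log2 fold change 0.34, SE 0.22, adjusted p = 0.76). Gabrg3 gave log2 fold changes from 0.13 (without KO replicate 1) to 0.57 (without KO replicate 2) when 1 library was left out.

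Several of these genes sit in clusters of unlike subunits. Gabrg1, Gabra2, Gabra4 and Gabrb1 lie between 70751047 and 72149037 on chromosome 5 (GRCm38), where the starts of Gabra4, on the minus strand, and Gabrb1, on the plus strand, overlap. Gabrg3 and Gabra5 are neighbours on chromosome 7, and Gabre, Gabra3 and Gabrq lie between 72255999 and 72842602 on chromosome X. Gabrg3 and Gabra5 shared a direction (log2 fold changes 0.34 and 0.32), whereas the other clusters held both directions. In order of position the log2 fold changes on chromosome 5 were −0.28, −0.051, 0.32 and 0.18. There Gabrg1 and Gabra2 lay below 0, and Gabra4 and Gabrb1 above it. On X the values were −0.84, 0.15 and −0.67. As the strand setting of the counting is not given in the sources used here, values of Gabra4, Gabrb1, Gabra5, Slc6a9 and Gphn, which overlap another counted gene with more than 5% of their own counts, are uncertain. The total counts of the largest overlapping gene equalled 467% of those of Gabra5 and 194% of those of Gabra4. For Slc6a9, Gabrb1 and Gphn they equalled 56.8%, 51.6% and 9.86%.

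Delta, epsilon and theta subunits form receptors largely outside the synapse. All 3 genes had log2 fold changes below 0, and 0 of 3 passed. Over the 19 alternative fits Gabrd ran from −0.47 to 0.14, the latter without KO replicate 1. It also turned above 0 without WT replicate 1. In males only it was below 0, with an unadjusted p under 0.05 (edgeR). Gabrd, the delta subunit of tonic inhibition, stood at 69.8, 63.0 and 36.6 CPM in WT, against 42.0, 53.9 and 59.2 CPM in KO, lowest in WT replicate F1 (means 56.5 ± 17.6 and 51.7 ± 8.80 CPM; log2 fold change −0.085, SE 0.25, adjusted p = 0.939, edgeR). The summed CPM of 7 striatal genes was lowest in the same library, at 1256, 875 and 401 in WT and 900.2, 1053 and 1169.6 in KO. No striatal marker was at 0, all 7 had log2 fold changes above 0 with TMM scaling, and their part in the Gabrd values was not tested.

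Gabre and Gabrq encode the epsilon and theta subunits known from hypothalamus and monoamine nuclei, and had the lowest log2 fold changes of the 26. Gabre stood at 7.16, 3.04 and 8.24 CPM in WT, against 5.04, 1.70 and 3.43 CPM in KO. Gabrq stood at 16.7, 8.34 and 24.0 CPM in WT, against 15.2, 4.51 and 9.83 CPM in KO. Both had the same order of libraries, which Gabrg1 had too. This order ran from WT replicate F1, WT replicate 1, KO replicate 1, KO replicate F1 and WT replicate 2 down to KO replicate 2. The genotypes overlapped for both genes. For Gabre the means 6.14 ± 2.74 and 3.39 ± 1.67 CPM gave these estimates: log2 fold change −0.84, SE 0.49, adjusted p = 0.747 (edgeR). For Gabrq the means 16.3 ± 7.85 and 9.85 ± 5.35 CPM gave these: log2 fold change −0.67, SE 0.53, adjusted p = 0.792. Without KO replicate 1 the log2 fold changes were −1.44 for Gabre (unadjusted p = 0.0262, adjusted p = 0.571, edgeR) and −1.39 for Gabrq (unadjusted p = 0.014, adjusted p = 0.55). Some other choices moved them the other way, to −0.50 and −0.45 without WT replicate 1 and −0.54 and −0.36 without KO replicate 2. In males only they were −0.62 and −0.36. Without WT replicate 2 both stayed below 0, and Gabre again had an unadjusted p under 0.05 (edgeR).

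Of the 6 markers of paraventricular neurons some followed this pair and others did not. Otp, a factor of neuroendocrine neurons, stood at 6.69, 2.261 and 9.54 CPM in WT, against 7.99, 1.45 and 3.70 CPM in KO. Sim1, a factor needed for the nucleus to form, stood at 1.24, 0.683 and 2.51 CPM in WT, against 1.01, 0.626 and 1.10 CPM in KO. As for Gabre and Gabrq, WT replicate F1 was highest and KO replicate 2 lowest in both. These extremes were not particular to the pair, as Slc6a11, Gabrg1 and Glra1 had them too. Among the genes of inhibition described here, WT replicate F1 was highest for 8 and KO replicate 2 lowest for 8. Crh, the corticotropin-releasing hormone gene, ran the other way, at 7.60, 7.70 and 5.47 CPM in WT, against 7.82, 8.09 and 7.16 CPM in KO. Avp, the vasopressin gene, stood at 27.7, 5.96 and 38.2 CPM in WT, against 5.25, 8.34 and 13.8 CPM in KO, lowest in KO replicate 1. Trh, the thyrotropin-releasing hormone gene, stood at 16.9, 7.40 and 23.4 CPM in WT, against 12.0, 14.1 and 12.1 CPM in KO, lowest in WT replicate 2. The 6 paraventricular markers summed to 84.9, 29.8 and 107 CPM in WT and 42.3, 36.6 and 53.0 CPM in KO, none was at 0, and 5 of the 6 had log2 fold changes below 0. Their part in the Gabre and Gabrq values was not tested.

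**Figure D5:**
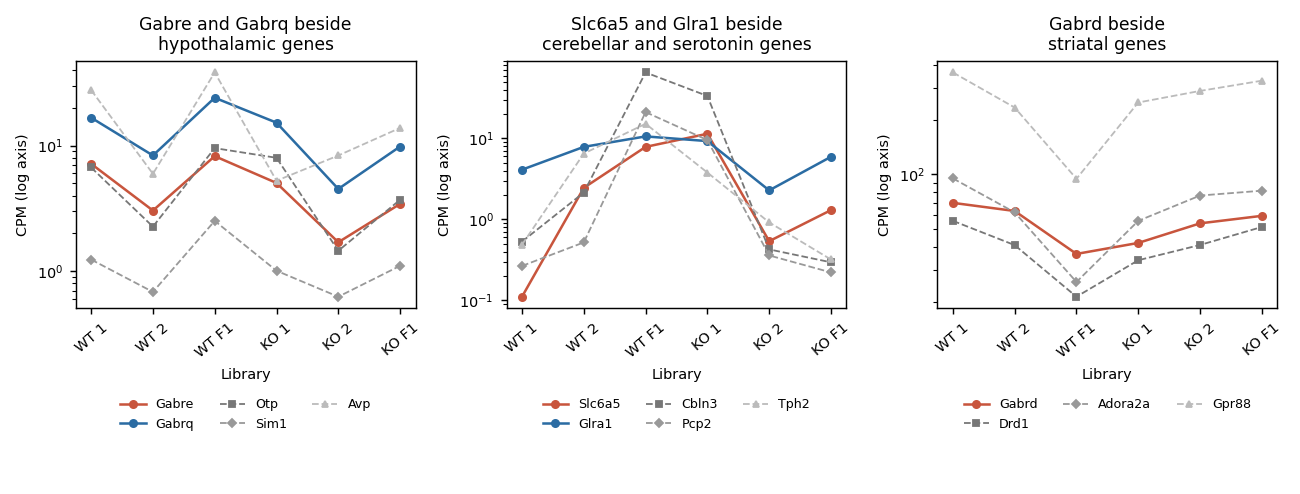
CPM on log axes in the 6 libraries for genes of inhibition (solid lines) and marker genes (dashed grey lines), lines joining the libraries only to guide the eye. Gabre and Gabrq peak in WT replicate F1 with Otp and Sim1, Slc6a5 is high in WT replicate F1 and KO replicate 1 with Cbln3 and Pcp2, and Gabrd is lowest in WT replicate F1.

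Gabre and Gabrq had the lowest log2 fold changes of the 26, Gabbr2 the smallest p and Slc6a5 the widest spread. Promoters are printed for these 4 genes. Each runs from 250 bases before to 50 after a RefSeq transcript start, 5′ to 3′ on the gene's strand, in GRCm38.p6 (Gabre chrX:72274672-72274971, minus; Gabrq chrX:72824928-72825227, plus; Gabbr2 chr4:46991665-46991964, minus; Slc6a5 chr7:49910049-49910348, plus). Capitals mark the GC box GGGCGG and the cyclic AMP response half-site TGACG, on either strand, neither of which lies within the other.
Gabre: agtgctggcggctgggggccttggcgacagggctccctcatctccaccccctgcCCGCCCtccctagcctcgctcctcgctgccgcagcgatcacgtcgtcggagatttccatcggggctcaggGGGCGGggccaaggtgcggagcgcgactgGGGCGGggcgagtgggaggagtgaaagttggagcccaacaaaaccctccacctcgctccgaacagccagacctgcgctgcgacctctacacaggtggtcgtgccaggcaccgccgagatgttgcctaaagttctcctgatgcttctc
Gabrq: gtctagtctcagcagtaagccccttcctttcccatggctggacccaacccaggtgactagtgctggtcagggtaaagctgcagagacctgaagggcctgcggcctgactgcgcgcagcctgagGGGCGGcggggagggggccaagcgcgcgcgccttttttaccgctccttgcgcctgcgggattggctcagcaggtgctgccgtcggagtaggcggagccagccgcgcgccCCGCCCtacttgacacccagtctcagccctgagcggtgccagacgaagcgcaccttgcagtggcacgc
Gabbr2: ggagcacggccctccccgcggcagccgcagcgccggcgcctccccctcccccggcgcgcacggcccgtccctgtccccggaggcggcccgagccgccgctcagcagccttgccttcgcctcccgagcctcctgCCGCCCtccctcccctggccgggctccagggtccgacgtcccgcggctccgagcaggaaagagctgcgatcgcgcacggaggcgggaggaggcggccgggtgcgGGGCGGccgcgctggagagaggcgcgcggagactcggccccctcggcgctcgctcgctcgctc
Slc6a5: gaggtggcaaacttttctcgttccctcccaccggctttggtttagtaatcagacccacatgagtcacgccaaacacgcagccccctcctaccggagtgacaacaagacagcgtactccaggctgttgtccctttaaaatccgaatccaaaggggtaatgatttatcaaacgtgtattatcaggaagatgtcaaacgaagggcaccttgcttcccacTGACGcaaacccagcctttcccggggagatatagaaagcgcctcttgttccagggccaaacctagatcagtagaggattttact
The GC box occurred 3 times in Gabre, 2 times in Gabrq, 2 times in Gabbr2 and 0 times in the printed Slc6a5 promoter, which held 1 half-site. A second RefSeq promoter of Slc6a5, not printed, held 0 GC boxes, 0 half-sites and 7 CpG pairs. Of 32817 promoters of this length 35.6% hold the GC box and 20.8% the half-site. RefSeq promoters matched 23 of the 26 genes, with 30 promoters between them, of which 16 hold a GC box and 6 a half-site. CpG pairs numbered 24 in Gabre, 23 in Gabrq, 46 in Gabbr2 and 12 in the printed Slc6a5 promoter. The median was 13 over the 30 promoters of these genes and 7 over all promoters. A match describes the letters only.

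Of the GABA-B receptor genes 0 of 2 passed the adjusted threshold, though Gabbr2 alone gave the smallest p of the 26. Gabbr2, the subunit that couples to the G protein, stood at 483, 505 and 452 CPM in WT, against 681, 572 and 519 CPM in KO. Every KO library lay above every WT library, KO replicate F1 only narrowly. The 7 markers of cortex and hippocampus, none at 0, all had log2 fold changes above 0 with TMM scaling and summed to 380.2, 411 and 243 CPM in WT and 517, 480.4 and 359 CPM in KO. Dlx2, a factor gene of forebrain GABA neurons, stood at 12.0, 11.5 and 8.47 CPM in WT, against 19.1, 17.2 and 13.8 CPM in KO, also without overlap. The part of these genes in the Gabbr2 values was not tested. For Gabbr2 the means 480.1 ± 26.8 and 591 ± 83.0 CPM (SD, n = 3 each) gave these estimates in edgeR: log2 fold change 0.29, SE 0.10, adjusted p = 0.735, with an unadjusted p of 0.0271. Without KO replicate 1 the log2 fold change was 0.21, and with WT replicate F1 and the sex term also left out it was 0.14. On log2(TPM + 1), where the median of all genes was −0.24, it was −0.0015. Gabbr1, the subunit that binds GABA, stood at 886, 829 and 775 CPM in WT, against 851, 877 and 889 CPM in KO, with overlap (means 830.0 ± 55.3 and 872 ± 19.7 CPM; log2 fold change 0.073, SE 0.094, adjusted p = 0.859). The TPM ratio of Gabbr1 to Gabbr2 was 3.17, 2.75 and 2.87 in WT and 1.99, 2.56 and 2.89 in KO, lowest in KO replicate 1.

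Of the proteins that hold inhibitory receptors in place, 0 of 2 passed. Gphn encodes gephyrin, the scaffold under GABA-A and glycine receptors, and stood at 67.1, 69.6 and 65.7 CPM in WT, against 81.3, 76.8 and 70.4 CPM in KO. All KO values were above all WT values, KO replicate F1 by a narrow step (means 67.5 ± 1.97 and 76.2 ± 5.44 CPM; log2 fold change 0.17, SE 0.093, adjusted p = 0.745, edgeR). Its log2 fold change was −0.13 on log2(TPM + 1), where the median gene also lay below 0. Nlgn2, the neuroligin of inhibitory synapses, stood at 284, 286 and 267 CPM in WT, against 294, 312 and 281 CPM in KO, with KO replicate F1 inside the WT range (means 279 ± 10.2 and 296 ± 15.5 CPM; log2 fold change 0.084, SE 0.083, adjusted p = 0.82).

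Glycine receptor transcripts were mostly those of Glrb, the beta subunit that binds gephyrin. It held 81.7 ± 4.24% of the summed TPM of the 4 receptor genes in WT and 85.4 ± 1.002% in KO (SD, n = 3 each). Glrb stood at 157, 172 and 160.0 CPM in WT, against 279, 161 and 167 CPM in KO, with KO replicate 1 far above the rest (means 163 ± 7.79 and 202 ± 66.1 CPM; log2 fold change 0.30, SE 0.21, adjusted p = 0.777, edgeR). Glrb gave log2 fold changes from 0.014 (without KO replicate 1) to 0.47 (without KO replicate 2) when 1 library was left out. Glra2, an alpha subunit prominent in the developing brain, ranged over 17.3 to 25.8 CPM in WT and 18.6 to 23.6 CPM in KO (means 21.2 ± 4.32 and 20.7 ± 2.60 CPM; log2 fold change −0.019, SE 0.17, adjusted p = 0.982). Glra3, another alpha subunit, stood at 14.7, 14.4 and 26.4 CPM in WT, against 24.7, 15.2 and 13.7 CPM in KO, high in 1 library of each genotype (means 18.5 ± 6.85 and 17.9 ± 5.92 CPM; log2 fold change −0.0059, SE 0.33, adjusted p = 0.998). Glra1, the alpha subunit of spinal cord and brainstem, stood at 4.11, 7.87 and 10.6 CPM in WT, against 9.28, 2.28 and 5.93 CPM in KO, lowest in KO replicate 2 (means 7.52 ± 3.26 and 5.83 ± 3.499 CPM; log2 fold change −0.33, SE 0.55, adjusted p = 0.894). Glra1 gave log2 fold changes from −1.13 (without KO replicate 1) to 0.024 (without KO replicate 2) when 1 library was left out.

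Slc6a5 encodes GlyT2, the transporter that marks glycine neurons of brainstem, spinal cord and cerebellum, and had the widest spread of the 26. It stood at 0.1104, 2.45 and 7.86 CPM in WT, against 11.4, 0.536 and 1.30 CPM in KO, from 5, 104 and 463 reads in WT and 329, 24 and 53 reads in KO. WT replicate F1 and KO replicate 1 were high and the genotypes overlapped (means 3.47 ± 3.98 and 4.42 ± 6.08 CPM; log2 fold change 0.81, SE 1.95, adjusted p = 0.926, edgeR). Its highest library was 104 times its lowest, whereas 11 of the 26 genes stayed under 1.5 times, and Gabre, Gabrq and Glra1 were the others above 3 times. Slc6a5 gave log2 fold changes from −1.90 (without KO replicate 1) to 2.21 (without WT replicate F1 or without KO replicate F1) when 1 library was left out.

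Some cerebellar genes were high in the same libraries. Cbln3, a gene of granule cells, stood at 0.530, 2.14 and 65.5 CPM in WT, against 33.5, 0.425 and 0.294 CPM in KO. Pcp2, a gene of Purkinje cells, stood at 0.265, 0.518 and 21.2 CPM in WT, against 9.55, 0.358 and 0.221 CPM in KO. Cbln1, a cerebellin gene, was lowest in KO replicate 1, at 25.8, 21.1 and 42.4 CPM in WT, against 19.2, 23.9 and 23.6 CPM in KO. The 7 cerebellar markers, none at 0, summed to 255, 208 and 448 CPM in WT and 406, 219 and 227 CPM in KO. Reads of the hindbrain genes Hoxb3 (11 and 8) and Hoxa5 (4 and 4) occurred in WT replicate F1 and KO replicate 1, those of Hoxb5 (3) in KO replicate 1, and none in the other libraries. Tph2, a gene of serotonin neurons, stood at 0.486, 6.50 and 15.2 CPM in WT, against 3.79, 0.916 and 0.319 CPM in KO. The part of these genes in the Slc6a5 values was not tested.

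Slc6a9, the glial glycine transporter GlyT1, stood at 65.7, 69.3 and 93.8 CPM in WT, against 73.2, 64.7 and 63.2 CPM in KO, highest in WT replicate F1 as Slc6a11 was (means 76.3 ± 15.3 and 67.0 ± 5.42 CPM; log2 fold change −0.17, SE 0.15, adjusted p = 0.803, edgeR). Slc6a9 gave log2 fold changes from −0.27 (without KO replicate 1) to 0.030 (without KO replicate F1 or without WT replicate F1) when 1 library was left out. The TPM ratio of Slc6a5 to Slc6a9 lay between 0.000506 and 0.0703.

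Other genes of the pathway, among them further receptor subunits, auxiliary subunits and the glycine cleavage system, were 35 in number, of which 32 were tested. Of these 0 passed in edgeR, and 3 had an unadjusted p under 0.05, against 6.38% of all genes, 2 higher in KO and 1 lower. Log2 fold changes were above 0 for 19 and below 0 for 13, with a median of 0.028. Shisa7, an auxiliary subunit of GABA-A receptors, stood at 145, 157 and 114 CPM in WT, against 232, 191 and 145 CPM in KO (means 139 ± 22.2 and 189 ± 43.8 CPM; log2 fold change 0.44, SE 0.11, adjusted p = 0.735). Each KO library lay above the WT libraries of its sex, but the female KO library lay inside the WT range. Amt, of the glycine cleavage system, stood at 20.3, 20.5 and 20.5 CPM in WT, against 15.0, 15.7 and 19.6 CPM in KO, without overlap (log2 fold change −0.30, SE 0.12, adjusted p = 0.735).

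Between the 2 female and 4 male libraries edgeR called 0 of the 26 genes, against 0.0422% of all genes, and 0 had an unadjusted p under 0.05, against 4.58%. The smallest p was that of Gabra2, with a female minus male log2 difference of −0.46 (SE 0.22, adjusted p = 0.941, edgeR).

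Whether the genotype effect differed between the sexes was tested with 1 female library per genotype, so that sex and the single library cannot be told apart. In edgeR 0 of 26 genes passed, against 0.0739% of all genes, and 4 had an unadjusted p under 0.05, against 7.42%. For Gabrd the female minus male difference of the log2 fold changes was 1.16 (SE 0.29, unadjusted p = 0.00673, adjusted p = 0.352). WT replicate F1, in which striatal genes were lowest, is 1 of the 2 female libraries, and their part was not tested. The same difference was −1.39 (SE 0.42, unadjusted p = 0.016, adjusted p = 0.459) for Glra3. It was −1.07 (SE 0.38, unadjusted p = 0.0315, adjusted p = 0.569) for Gabra5. It was −0.60 (SE 0.23, unadjusted p = 0.0391, adjusted p = 0.609) for Slc6a9.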

How the data were processed

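For each Ensembl gene and library the authors deposited whole-number counts, TPM and FPKM, per the file headers. The submitters' processing notes name the tools bedtools 2.26.0, FastQC 0.11.2 and Trimmomatic 0.36, without their roles. Aligner, counter, strand setting and build: not given in the sources used here. Coordinates of all 26 genes equal those in GENCODE M21 (GRCm38).

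Deposited counts were tested in edgeR 4.0.16 (R 4.3.3): filterByExpr by genotype, TMM scaling, robust quasi-likelihood fits on genotype and sex, Benjamini-Hochberg adjustment over 18956 genes, threshold 0.05. The fit was checked on simulated counts. CPM uses TMM-scaled library sizes, and SE is the size of the log2 fold change over the root of F. The floor of 3 counts equals 0.0509 to 0.104 CPM and covers counting error only. Deposited TPM served for levels, shares and an alternative test in limma 3.58.1, and deposited FPKM only as a check. DESeq2 was version 1.42.0.

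The genes and lists were chosen with earlier results of these data known. Values in every library are given for genes fixed by role, for the 5 smallest p and where the highest library exceeds 3 times the lowest. Gabra5, Glra3 and single genes of the marker lists were chosen after their values were seen. Of other pathway genes those with the smallest p are named, and some genes picked by that rule or held in marker lists are not reported here. Promoter sequences are from RefSeq.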

Additional observations from a re-analysis of the deposited data

How the results depend on the processing

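Of the 26 genes 0 passed in each of the 19 alternatives to the genotype fit, with a lowest adjusted p of 0.531, and 0 passed for sex and for its interaction with genotype. Over all genes 1 passed, against 4 with no filter, 74 with DESeq2, 4 on log2(TPM + 1), 5 on log2(TPM + 0.1), 3 without a sex term, 18 in males only, 27 without WT replicate F1, KO replicate 1 and the sex term, and 0 to 20 when 1 library was left out. The cause was not tested.

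With the replicate number as a block 0 genes passed, and Gabre, Gabrq and Gabbr2 had an unadjusted p under 0.05. Deviations of same-numbered libraries correlated at −0.044, 0.019 and 0.018, and not every library correlated best with its own number. Same-numbered libraries share sex by their labels, and these correlations do not tell what else they share.

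Sign changed in at least 1 alternative for 19 of the 26 genes, and for 13 when set against the median of all genes. That median was −0.17 with unscaled library totals and −0.24 and −0.29 with the TPM fits, where 7, 12 and 12 genes changed sign, but 0, 2 and 0 relative to it. The median over the 26 lay between −0.015 and 0.12 when 1 library was left out. Depth is lowest for Slc6a5, with 5 counts in WT replicate 1.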
